A study of Mus musculus with 6 samples.

Results

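The granins and the receptor-type tyrosine phosphatase-like proteins of the secretory granule were followed in mouse pancreatic islets with and without Dpy30. The set holds 7 genes, taken by GENCODE vM21 symbol: the granins Chga, Chgb, Scg2, Scg3 and Vgf, and the membrane proteins Ptprn and Ptprn2. All 7 passed the filter on low counts, out of 16430 genes tested. The 6 libraries came from male C57BL/6 mice at postnatal day 24, 1 mouse per library, with 3 control mice and 3 Dpy30 knockout mice. The Dpy30 protein sits in the core of every complex of the COMPASS family, which methylates lysine 4 of histone H3 at active promoters, and the series asks what trimethylation of this residue does while endocrine cells mature after birth. The labels give neither the Cre line, nor the alleles the controls carry, nor the part of Dpy30 that was deleted, so the cells that lost Dpy30 cannot be named from them.

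Granins are acidic proteins that aggregate with calcium in the trans-Golgi network, where dense-core granules form, and they are stored and released together with peptide hormones. Several of them are also cut into peptides of their own. Ptprn and Ptprn2 span the granule membrane; their cytosolic domains resemble tyrosine phosphatases but lack the usual catalytic activity, and both proteins are autoantigens of autoimmune diabetes. A cytosolic fragment of Ptprn, released when granules fuse with the plasma membrane, is known to reach the nucleus and to raise the expression of granule genes.

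The libraries held 17131515 to 25354384 estimated reads. Dpy30 transcripts that lack the 143 bp exon 4 made up 3.15% ± 2.46 of Dpy30 reads in controls and 81.2% ± 0.841 in knockouts (SD, n = 3 each; exact two-sided permutation p = 0.1, the smallest that 3 against 3 allows), so all 6 libraries fitted their labels. Knockout replicate 2 stood apart from the other 5 libraries: the predicted gene Gm42418 took 14.7% of its reads against 0.099 to 0.236% elsewhere. In this library expression level fell with transcript length (Spearman rho -0.513 across 10534 genes). The rho was 0.02 and 0.032 in knockout replicates 1 and 3, and 0.167 to 0.291 in controls. This trend with length thus did not overlap between the groups, and its part in the differences between them was not tested. Without knockout replicate 2 the log2 fold changes (knockout over control) of Chga, Chgb, Vgf and Ptprn2 were -0.11, 0.22, -0.65 and -0.24, none of them called by edgeR. Those of Scg2 and Scg3 are given with these genes. Ptprn stood at 0.78 and was called. Beta cell markers were present in all libraries, with a summed level of 159300 to 263800 CPM (read counts scaled to a common library size, with TMM) in controls and 71230 to 121400 in knockouts. Ins1, Ins2 and Iapp made up most of this sum. Of the 8 markers, edgeR called 2 lower and 0 higher. Ins1, Ins2, Slc2a2 and Ucn3 were lower in every knockout library, Mafa was higher in every one, and Iapp, Nkx6-1 and G6pc2 overlapped. In whole islets, fewer cells of a type and less RNA per cell cannot be told apart.

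The DNA just upstream of these genes is shown first, because the knocked-out factor acts on promoters and because cyclic AMP is a known inducer of granin genes through the cyclic AMP response element (CRE, TGACGTCA) and its half-site TGACG. RefSeq windows of 300 bases, from 250 before to 50 after the transcription start on GRCm38.p6, were found for 6 of the 7 genes, all but Vgf; Ptprn had 2 windows, for 2 starts, and the other genes 1 each. The full element, which contains the half-site on both strands, lay in the windows of Chgb, 72 bases before the start, and Scg2, 68 bases before it. It was found in 1.79% of 32851 windows genome-wide. The half-site, searched on both strands, lay in 5 of these 7 windows and in 20.8% of all windows. It was in neither the Ptprn2 window nor the second, downstream window of Ptprn, which is not shown. A 30-base stretch around 1 element per gene is given 5′ to 3′ on each gene's own strand, with the element in capitals.
Chga (chr12:102554886-102554915, plus strand): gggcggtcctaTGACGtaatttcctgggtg
Chgb (chr2:132781559-132781588, plus strand): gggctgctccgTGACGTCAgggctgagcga
Scg2 (chr1:79440076-79440105, minus strand): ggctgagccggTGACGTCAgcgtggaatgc
Scg3 (chr9:75684068-75684097, minus strand): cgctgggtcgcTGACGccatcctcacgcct
Ptprn (chr1:75264307-75264336, minus strand): ttacgccagtaTGACGcaaataggcataag
The stretches of Chgb and Scg2 also fall inside exons of longer GENCODE transcripts. These are matches of letters and say nothing about binding in islets.

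For the paralogues Ptprn and Ptprn2, whose ratio of reads is compared further on, the upstream stretch of the first Ptprn window and of the Ptprn2 window outside annotated exons is given in full. In the Ptprn stretch the capitals mark the half-site on the printed strand, 117 bases before the start, and on the opposite strand, read there as CGTCA, 80 bases before it.
Ptprn (chr1:75264214-75264433, minus strand, 220 bases): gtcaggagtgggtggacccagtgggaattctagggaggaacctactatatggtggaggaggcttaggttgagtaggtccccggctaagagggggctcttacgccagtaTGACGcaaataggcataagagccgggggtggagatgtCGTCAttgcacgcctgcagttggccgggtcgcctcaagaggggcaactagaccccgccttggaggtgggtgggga
Ptprn2 (chr12:116485470-116485719, plus strand, 250 bases, neither motif): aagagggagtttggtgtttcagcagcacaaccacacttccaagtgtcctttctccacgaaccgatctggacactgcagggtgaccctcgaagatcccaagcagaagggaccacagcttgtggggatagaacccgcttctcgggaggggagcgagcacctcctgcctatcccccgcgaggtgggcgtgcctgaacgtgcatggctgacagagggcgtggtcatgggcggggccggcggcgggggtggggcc

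In control islets the 7 genes covered a wide range of levels. On the length-scaled TPM values, which allow genes to be compared, Chga stood at 6662 ± 1539 TPM (SD, n = 3) and ranked 9 among all genes. Scg2 followed at 2031 ± 143 TPM (rank 23). Chgb, at 765 ± 134 TPM, and Scg3, at 728 ± 39.8 TPM, did not differ beyond their spread. Below them came Ptprn2 at 273 ± 24.6 TPM, Ptprn at 134 ± 4.44 TPM and, far lower, Vgf at 13.2 ± 11.5 TPM (rank 5466). The control values of all other neighbours in this order did not overlap. In knockout islets Ptprn reached 273 ± 77.6 TPM and Ptprn2 279 ± 86.1 TPM, so the pair that was separated in control islets was not separated there. Chga and Scg2, and Scg3 and Chgb, also overlapped across the knockout libraries. Within each knockout library Chga stood above Scg2, at 8536 and 4991, 4345 and 2710, and 9395 and 4937 TPM in replicates 1 to 3. The order of Scg3 and Chgb, and that of Ptprn and Ptprn2, differed between knockout libraries.

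**Figure D1:**
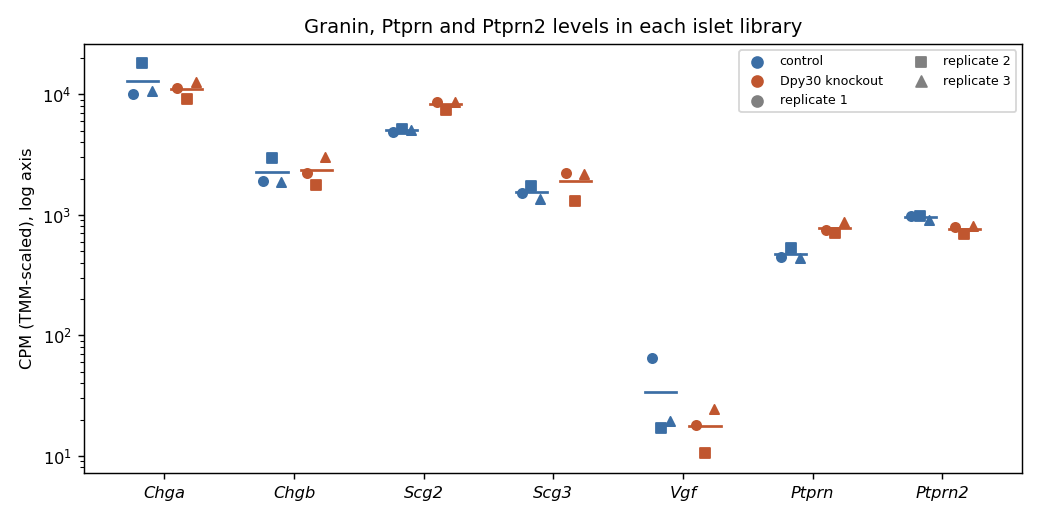
Level of each of the 7 granule genes in every library, in CPM on a log axis; points are libraries and bars are group means (n = 3 per group). The knockout points of Scg2 and Ptprn all lie above the control points, those of Ptprn2 all lie below, and the other 4 genes overlap.

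Of the 7 genes, 1 rose in knockout islets and 0 fell by edgeR's quasi-likelihood test with Benjamini-Hochberg adjustment over all genes, at a threshold of 0.05. Among all genes tested 9.95% were called, 4.1% as higher and 5.84% as lower. An unadjusted p under 0.05 was reached by 2 of the 7 genes. The groups did not overlap for 3 of them, 2 with knockout above and 1 with knockout below; over all genes this held for 34.8%, with 17.6% above and 17.2% below. The median log2 fold change of the set was 0.05 against 0.01 over all genes. The set thus did not move one way: log2 fold changes (knockout over control, on the CPM scale) ran from -0.91 to 0.72, with 4 above 0 and 3 below.

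**Figure D2:**
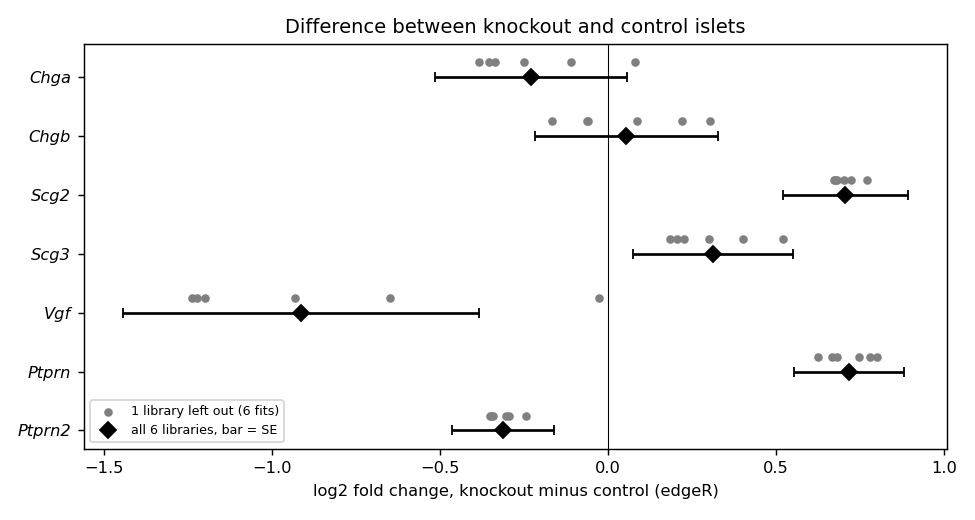
Log2 fold change, knockout over control, of the 7 granule genes with its SE, from the edgeR fit and with each library left out in turn. Ptprn (0.72) and Scg2 (0.71) stay above 0 and Ptprn2 (-0.31) below 0 in all 6 leave-one-out fits, whereas Chga and Chgb cross 0.

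Chga (ENSMUSG00000021194; chr12:102554969-102565028, plus strand) encodes chromogranin A, the precursor of pancreastatin and vasostatin. It read 10145, 18036 and 10686 CPM in control replicates 1 to 3 and 11303, 9140 and 12690 CPM in knockout replicates 1 to 3. The groups overlapped, and control replicate 2 lay above all the others. The means were 12956 ± 4408 and 11044 ± 1789 CPM (SD, n = 3 each), a log2 fold change of -0.23 (SE 0.29, edgeR adjusted p = 0.648). Without control replicate 2 the value was 0.08, so its sign rested on that library.

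Chgb (ENSMUSG00000027350; chr2:132781278-132795079, plus strand) encodes chromogranin B. Its control libraries held 1899, 2980 and 1883 CPM and its knockout libraries 2228, 1774 and 3016 CPM. The highest control and the highest knockout value were nearly equal, and the groups overlapped fully. The log2 fold change was 0.05 (SE 0.27, edgeR adjusted p = 0.923), with 2254 ± 629 CPM in controls and 2339 ± 629 CPM in knockouts. It ran from -0.17 to 0.30 as single libraries were left out, so no direction can be given.

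Scg2 (ENSMUSG00000050711; chr1:79434669-79440120, minus strand) encodes secretogranin II, the precursor of secretoneurin. It read 4913, 5198 and 5056 CPM in controls and 8614, 7480 and 8645 CPM in knockouts. All 3 knockout values lay above all 3 control values. The means were 5055 ± 143 and 8246 ± 664 CPM, a ratio of 1.63, with a log2 fold change of 0.71 (SE 0.19). With an adjusted p of 0.0506 in edgeR, Scg2 missed the threshold. DESeq2 (adjusted p = 3.56e-05) and limma-voom (0.0271) called it. Over all genes DESeq2 called 14.2% and limma-voom 9.96%. With no filter on low counts (0.0248) or an offset for average transcript length (0.045) edgeR called it too. So did edgeR without Ins1, Ins2 and Gm42418 in the library sizes (0.0395). Scg2 was not called by edgeR with DESeq2 size factors (0.0531), with library totals alone (0.0628) or with a block for replicate number (0.058). Left out one at a time, the libraries gave log2 fold changes of 0.67 to 0.77; only the fit without knockout replicate 2 passed (adjusted p = 0.0238). The authors' deposited table gives 0.67 for Scg2 on the log2 scale (adjusted p = 7.06e-05).

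Scg3 (ENSMUSG00000032181; chr9:75643189-75684056, minus strand) encodes secretogranin III, which binds cholesterol-rich granule membrane and chromogranin A. Control libraries held 1520, 1726 and 1358 CPM and knockout libraries 2215, 1314 and 2184 CPM. Knockout replicates 1 and 3 lay above every control, while knockout replicate 2 lay below every control. The log2 fold change was 0.31 (SE 0.24, edgeR adjusted p = 0.437), from 1534 ± 184 to 1904 ± 511 CPM (SD, n = 3 each). Without knockout replicate 2 it was 0.52 with an adjusted p of 0.0852.

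Vgf (ENSMUSG00000037428; chr5:137026392-137033351, plus strand) encodes a granin-like precursor of several neuroendocrine peptides and is known as a nerve growth factor-inducible gene. It read 64.4, 16.9 and 19.3 CPM in controls and 18.1, 10.5 and 24.6 CPM in knockouts. Only control replicate 1 lay apart, and the other 5 libraries overlapped. The log2 fold change was -0.91 (SE 0.53, edgeR adjusted p = 0.304), with 33.5 ± 26.8 and 17.7 ± 7.08 CPM (SD, n = 3 each). Without control replicate 1 it was -0.03 (adjusted p = 0.969), so the size of the difference rested on that library.

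Ptprn (ENSMUSG00000026204; chr1:75247027-75264502, minus strand) was the gene of the set that rose. It read 450, 526 and 438 CPM in controls and 741, 709 and 875 CPM in knockouts. Each knockout value exceeded each control value. The means were 471 ± 47.2 and 775 ± 88.2 CPM (SD, n = 3 each), a ratio of 1.64 and a log2 fold change of 0.72 (SE 0.16, edgeR adjusted p = 0.0318). The call was lost in 5 of the 6 leave-one-out fits, with an adjusted p of 0.113 without control replicate 1, 0.07 without control replicate 2 and 0.119 without control replicate 3, and, of the knockout replicates, 0.0616 without number 1 and 0.0984 without number 3; the difference itself stayed at 0.62 to 0.80 on the log2 scale. In the authors' deposited table Ptprn stands at 0.63 on the log2 scale (adjusted p = 0.000371).

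Ptprn2 (ENSMUSG00000056553; chr12:116485720-117276849, plus strand), which encodes phogrin, the paralogue of Ptprn, lay lower on the CPM scale in every knockout library. It read 982, 969 and 907 CPM in controls and 797, 693 and 812 CPM in knockouts. The groups did not overlap, but the difference was small beside that of Ptprn. With 953 ± 40.0 and 767 ± 64.9 CPM (SD, n = 3 each), the log2 fold change was -0.31 (SE 0.15) and was not called (edgeR adjusted p = 0.228). On TPM its means were 273 and 279 and knockout replicates 1 and 3 lay above every control. The lower level was thus seen on counts, with TMM or with library totals alone (log2 fold change -0.171). It was also seen with an offset for average transcript length (-0.313, edgeR adjusted p = 0.242). Ptprn2 was not called in any of these fits. On TPM, which carries no TMM scaling between libraries, the lower level was not seen. The authors' deposited table lists it at -0.28 with an adjusted p of 0.155.

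Levels of other cell types' markers moved beside these values. The summed acinar markers were 644.5 to 2657 CPM in controls and 1917 to 10420 CPM in knockouts, with 0 of 9 tested markers called by edgeR. With the acinar level as a covariate the log2 fold change of Ptprn was 0.53 (adjusted p = 0.16), that of Scg2 0.63 (0.181) and that of Ptprn2 -0.43 (0.252). The summed endothelial markers were 576.7 to 713.3 CPM in controls and 768.5 to 1003 CPM in knockouts, with 4 of 7 called higher. Mesenchymal markers held 192.6 to 416.8 and 341.6 to 719.7 CPM, with 1 of 7 called. The Schwann and neural markers, which include cells that themselves make granins, held 38.5 to 87.84 and 111.5 to 154.2 CPM, with 1 of 7 called. The 1 marker of PP cells, Ppy, was at 2540 to 4642 and 456.1 to 1017 CPM and was called lower. Delta cell markers were at 3109 to 3440 and 1455 to 1869 CPM, with 2 of 3 called lower, and alpha cell markers at 36430 to 65520 and 23960 to 28880 CPM, with 1 of 5 called lower. None of these lists' markers was at 0 in every library, and their part in the values of the granule genes was not tested.

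Ratios taken within a library need no scaling between libraries, so 4 of them were compared. Such ratios do not remove a trend of level with transcript length, which did not overlap between the groups. Average effective lengths were 3113 and 3071 bases for Ptprn and Ptprn2, and 1678 and 2553 for Chga and Chgb. The part of this trend in the ratios was not tested. The Ptprn to Ptprn2 ratio of CPM was 0.458, 0.542 and 0.483 in controls and 0.931, 1.02 and 1.08 in knockouts. Every knockout library lay above every control library, with about as many Ptprn as Ptprn2 reads. The mean log2 difference was 1.03, a ratio of 2.04 between the groups. The exact two-sided permutation test gave p = 0.1, the smallest value possible, and 0.133 after adjustment over the 4 ratios.

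Chga and Chgb, the classical pair of chromogranins, stood at 5.34, 6.05 and 5.68 Chga reads per Chgb read in controls and at 5.07, 5.15 and 4.21 in knockouts. The groups did not overlap, with a log2 difference of -0.25 (exact permutation p = 0.1, adjusted 0.133). The granins together were 12.9, 18.7 and 14.1 times the sum of Ptprn and Ptprn2 in controls and 15.8, 14.1 and 15.7 times in knockouts. Here the groups overlapped, with a log2 difference of 0.01 (exact permutation p = 1).

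Against insulin, the main cargo of beta cell granules, the set stood higher in every knockout library. The 7 genes together held 0.14, 0.124 and 0.124 reads per read of Ins1 and Ins2 in controls and 0.439, 0.203 and 0.331 in knockouts. The lowest knockout ratio belonged to replicate 2 and still exceeded the highest control ratio. The log2 difference was 1.26, a ratio of 2.399 (exact permutation p = 0.1, adjusted 0.133). Insulin reads made up 13.64 to 21.88% of control and 6.506 to 9.66% of knockout libraries, while reads of the 7 genes made up 1.906 to 2.706% and 1.963 to 3.143%, so that the insulin share was the part whose groups did not overlap.

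**Figure D3:**
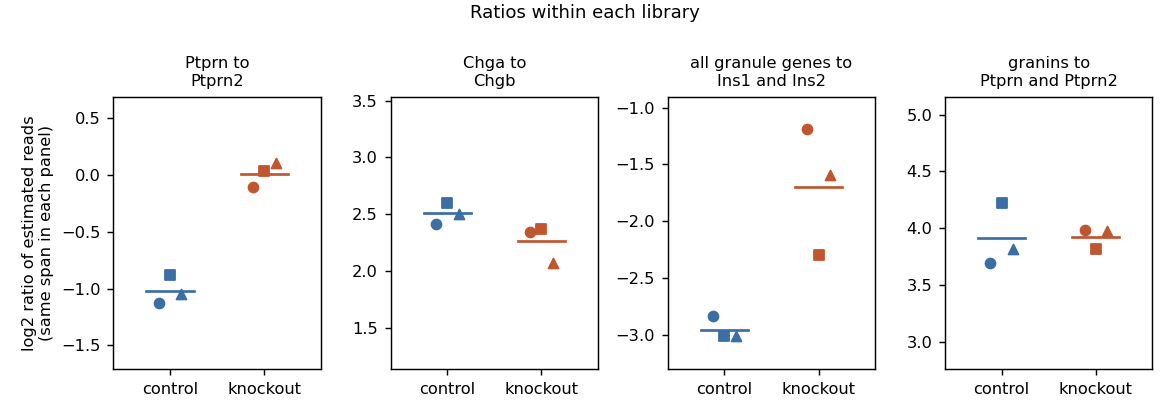
Log2 of 4 read ratios within each library; points are libraries and bars group means (n = 3 per group). Ptprn to Ptprn2 and the 7 genes to Ins1 and Ins2 are higher in all knockout libraries, Chga to Chgb is lower in all of them, and the granins to Ptprn and Ptprn2 overlap.

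Among transcripts, 20 of the set's 28 passed the filter and 0 were called by edgeR; 4 had an unadjusted p under 0.05, and DESeq2 called 3. Over all 42104 transcripts tested, 175 (0.416%) were called by edgeR. The transcripts that DESeq2 called were Ptprn-201 (log2 fold change 0.72, adjusted p = 0.0061), Scg2-201 (0.60, adjusted p = 0.00153) and Scg2-202 (0.75, adjusted p = 0.000184). Salmon divides reads between overlapping transcripts by estimation, so the shares that follow are estimates.

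The shares of the tested transcripts did not overlap between the groups for 3 of the 20, the 2 forms of Scg2 and Vgf-201. Scg2 has only these 2 forms, so their shares mirror each other and make 1 comparison. The same count was not made over all transcripts, so the 3 cannot be set against a general rate. The main coding form of Vgf, Vgf-201, held 94.2, 85.6 and 90.9% of Vgf reads in controls and 94.4, 100 and 100% in knockouts (exact permutation p = 0.1), with as few as 166 reads in a library. Ptprn-201, the full coding form, held 98.5% of Ptprn reads in controls and 98.8% in knockouts. Of Ptprn2 reads, the coding form Ptprn2-201 held 65.6% ± 1.10 and 65.3% ± 4.88, and the nonsense-mediated decay form Ptprn2-204 held 34.1% ± 1.14 and 34.3% ± 4.89 (SD, n = 3 each). Ptprn2-201 was lower in every knockout library, at 656, 627 and 604 CPM in controls and 515, 467 and 522 CPM in knockouts. Ptprn2-204 overlapped, at 328, 345 and 308 CPM in controls and 283, 192 and 330 CPM in knockouts. Their edgeR log2 fold changes were -0.327 and -0.285, neither called. Without knockout replicate 2 they were -0.278 and -0.092, so the lower level of Ptprn2-204 rested largely on that library. Scg3-202 made up 75.8% ± 1.52 and 74.8% ± 1.39 of Scg3 reads.

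Scg2 reads were shared by 2 forms. Scg2-202, in which an extra intron is removed from the large exon that carries nearly all of the coding sequence (its exons there are 79434669 to 79435931 and 79436052 to 79437018 on chromosome 1), held 66.8% ± 1.08 in controls and 69.0% ± 0.808 in knockouts. The groups did not overlap (exact permutation p = 0.1), and the difference was small. In edgeR the log2 fold changes were 0.75 for Scg2-202 (adjusted p = 0.162) and 0.61 for Scg2-201 (adjusted p = 0.194).

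The genes on either side of each member were compared after its values had been seen. Of the 14 nearest tested protein-coding neighbours, 3 were called higher and 1 lower, where 4.1% and 5.84% of all genes tested were. The lower one was Resp18, 7697 bp from Ptprn and on the same strand, which encodes an endocrine granule protein related in sequence to the lumenal part of Ptprn and Ptprn2. Resp18 read 1008, 869 and 769 CPM in controls and 185, 276 and 199 CPM in knockouts. No knockout value came near the lowest control value. The log2 fold change was -2.005 (SE 0.21, edgeR adjusted p = 0.00212), with 882 ± 120 against 220 ± 49.1 CPM, and it was called in all 6 leave-one-out fits at -2.201 to -1.894. Adjacent on chromosome 1, Ptprn and Resp18 thus changed in opposite directions.

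Dnajb2, the neighbour on the other side of Ptprn at 1335 bp, encodes a co-chaperone and was not called (log2 fold change 0.16, edgeR adjusted p = 0.469). The higher neighbours were Itpk1 beside Chga (0.70, edgeR adjusted p = 0.0393), Plod3 beside Vgf (0.76, 0.0184) and Rapgef5 beside Ptprn2 (0.94, 0.0127). They encode an inositol phosphate kinase, a lysyl hydroxylase of collagen and an exchange factor for Rap GTPases. The 3 members beside them were not called.

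**Figure D4:**
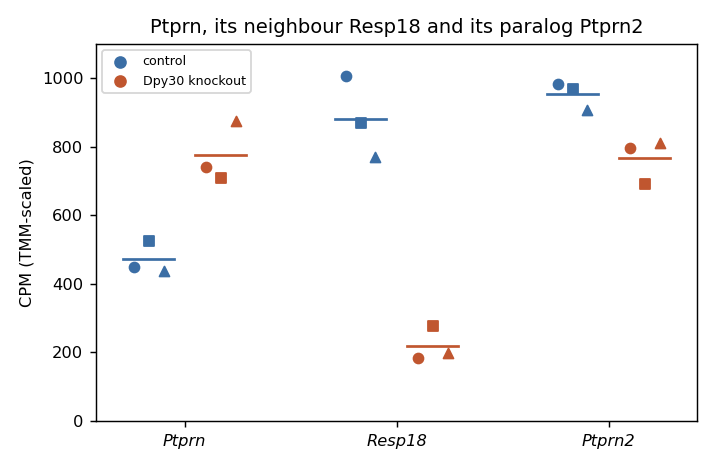
Level of Ptprn, its neighbour Resp18 and its paralogue Ptprn2 in every library, in CPM on a linear axis from 0; points are libraries and bars are group means (n = 3 per group). Ptprn is higher, and Resp18 and Ptprn2 lower, in all knockout libraries.

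The rest of the granule pathway was read from lists grouped by function and chosen with earlier results of these data known. Each count below stands beside 4.1% called higher and 5.84% called lower over all genes tested by edgeR. Because of how the lists were chosen, a count above these shares is a description and not a test. Of 8 prohormone processing and granin-like genes, 0 were called by edgeR (1 had an unadjusted p under 0.05), and the median log2 fold change was 0.06. Scg5, the chaperone of the convertase Pcsk2, stood at 792 ± 43.5 CPM in controls and 1053 ± 111 CPM in knockouts (log2 fold change 0.41, edgeR adjusted p = 0.143). Its counterpart Pcsk1n, an inhibitor of Pcsk1, stood at 652 ± 125 and 473 ± 114 CPM (-0.46, adjusted p = 0.228). For Pcsk1, the convertase itself, the value was 0.37 (adjusted p = 0.212), and for Pam, which amidates peptides, 0.39 (adjusted p = 0.296). Without knockout replicate 2, Pam reached 0.60 and was called higher (edgeR adjusted p = 0.037), the 1 gene of the list that was called in that fit.

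Of 17 genes of the granule membrane, docking and transport, 7 fell and 1 rose, with a median of -0.21. Slc30a8, the zinc transporter of insulin granules, read 1093, 1136 and 912 CPM in controls and 314, 361 and 273 CPM in knockouts (log2 fold change -1.73, edgeR adjusted p = 0.0021). The small GTPase Rab37 fell from 174 ± 32.1 to 47.9 ± 7.80 CPM (SD, n = 3 each; -1.86, edgeR adjusted p = 0.0021). Slc17a9, the vesicular nucleotide transporter, fell from 17.5 ± 6.67 to 2.53 ± 1.57 CPM (-2.81, edgeR adjusted p = 0.0194), and Cltrn, also known as collectrin, from 722 ± 35.4 to 415 ± 6.11 CPM (-0.80, edgeR adjusted p = 0.0128). As control replicates 1, 2 and 3 were left out in turn, the number called lower was 4, 2 and 2; for knockout replicates 1, 2 and 3 it was 5, 7 and 2. The gene that rose, named after its values were seen, was Atp6ap1, an accessory subunit of the vacuolar proton pump, at 225 ± 33.3 CPM in controls and 346 ± 16.9 CPM in knockouts (0.62, edgeR adjusted p = 0.045). It was called in 0 of the 6 leave-one-out fits and not with the replicate block (0.0527), no filter on low counts or the length offset.

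Of 18 granule biogenesis and sorting genes, 1 rose and 0 fell. This was Eipr1, a partner of the complex that tethers endosome-derived vesicles, at 13.0 ± 1.12 CPM in controls and 22.8 ± 2.73 CPM in knockouts (log2 fold change 0.80, edgeR adjusted p = 0.02). Vps51 and Vps52, subunits of that complex, had log2 fold changes of 0.45 (adjusted p = 0.102) and 0.30 (adjusted p = 0.167). Vps51 was called with library totals alone (0.0398). Named after their values were seen, Vps53 had 0.27 (edgeR adjusted p = 0.189) and Vps54 went the other way, at -0.17 (0.404). Ica1, an islet autoantigen of the Golgi and immature granules, had -0.40 (adjusted p = 0.0999).

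Of 5 genes for partners of the Ptprn protein, 2 fell. Utrn, which encodes the cytoskeletal linker utrophin, fell from 217 ± 27.4 to 136 ± 7.17 CPM (SD, n = 3 each; log2 fold change -0.67, edgeR adjusted p = 0.028). Capn1, a calpain known to cut the cytosolic domain of Ptprn, fell from 38.0 ± 1.80 to 23.6 ± 2.80 CPM (-0.68, edgeR adjusted p = 0.02). The adaptor Sntb2 and the transcription factor Stat5b had log2 fold changes of 0.21 (adjusted p = 0.409) and -0.14 (adjusted p = 0.578).

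Among 15 other receptor-type tyrosine phosphatases, 2 fell and 0 rose by edgeR (2 with higher values had an unadjusted p under 0.05). With the replicate block 1 rose, Ptpro (log2 fold change 1.16 and adjusted p = 0.12 without the block, 0.0419 with it), named after its values were seen. Ptprt fell from 122 ± 20.4 to 59.2 ± 15.8 CPM (log2 fold change -1.04, edgeR adjusted p = 0.0264). Ptprf fell from 465 ± 58.4 to 304 ± 25.2 CPM (-0.61, edgeR adjusted p = 0.0491). Ptprd (-0.61, adjusted p = 0.0888) and Ptprj (-0.50, adjusted p = 0.0701) were not called by edgeR, but DESeq2 called both lower (adjusted p = 0.05 and 0.044), which made 4 lower in the list.

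Of the 11 regulators of neuroendocrine genes described here, 6 fell and 5 were not called, with a median of -0.59. The homeodomain factor Isl1 fell from 212 ± 10.5 to 94.2 ± 2.87 CPM (log2 fold change -1.17, edgeR adjusted p = 0.00226). The zinc finger factors St18 and Myt1 fell, with log2 fold changes of -1.36 (edgeR adjusted p = 0.00365) and -1.32 (0.0116). The other 3 were Pax6 (-0.80, edgeR adjusted p = 0.044), Nkx2-2 (-0.59, 0.0277) and Rfx6 (-0.66, 0.0305), transcription factors of islet endocrine cells. The number called lower was 3 when any control replicate was left out, and 3, 5 and 2 when knockout replicates 1, 2 and 3 were. No granin fell past the threshold in the same libraries, but Chga (-0.23, SE 0.29) and Vgf (-0.91, SE 0.53) were measured with wide errors. Whether these regulators bear on the granins was not tested.

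Of the genes named from these lists and as neighbours, Slc30a8, Rab37, Isl1, St18 and Resp18 were called in all 6 leave-one-out edgeR fits. The call of Myt1 was lost without knockout replicate 3 (adjusted p = 0.0516), that of Pax6 without any 1 of the libraries (0.0696 to 0.144), and those of Nkx2-2 and Rfx6 without any 1 library other than knockout replicate 2 (up to 0.102 and 0.118). Cltrn and Slc17a9 were each lost without control replicates 2 and 3 and without knockout replicate 3 (highest adjusted p = 0.0548 and 0.0626). Plod3 was lost without control replicates 1 and 3 and knockout replicate 3 (up to 0.0705), and Rapgef5 without control replicates 2 and 3 (up to 0.0545). Eipr1 and Ptprt were lost without any 1 control or knockout replicate 3 (up to 0.0787 and 0.0715), and Capn1 without any 1 control or knockout replicate 1 (up to 0.0792). Ptprf held only without knockout replicate 2, Utrn only without control replicate 3 and Itpk1 only without knockout replicate 1 (highest adjusted p elsewhere 0.166, 0.104 and 0.138). Their log2 fold changes kept their sign in all these fits.

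**Figure D5:**
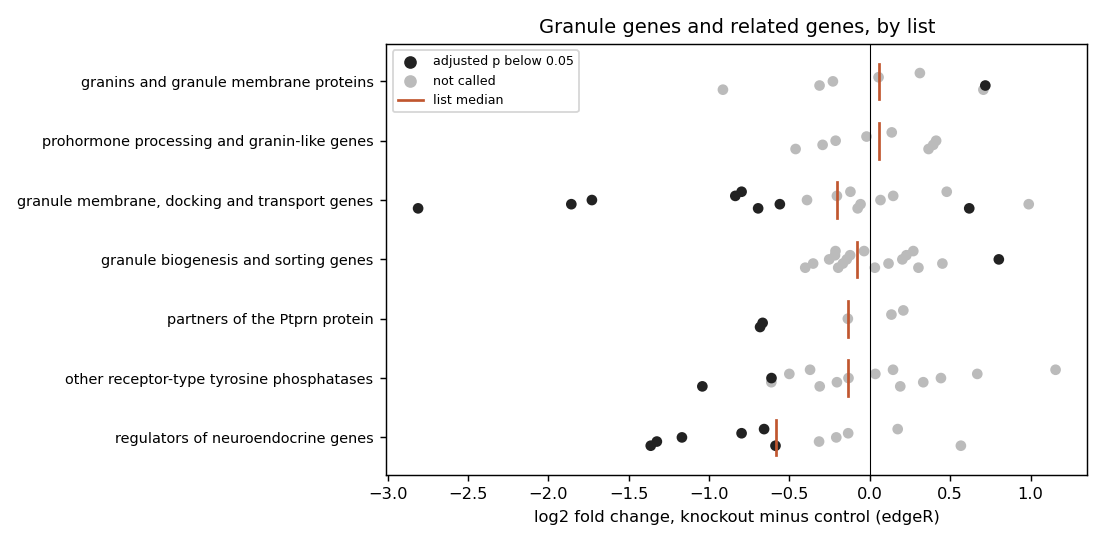
Log2 fold change, knockout over control, of every tested gene in the 7 granule genes and the 6 other lists, with genes called by edgeR in black and list medians as bars. Most called genes lie below 0 in the lists of granule membrane, docking and transport genes (7 lower, 1 higher) and of regulators (6 lower).

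For each member, the 2 genes whose level across the 6 libraries was most like it were found among 11022 genes of at least 5 CPM, by Pearson r of log2 CPM. These values share libraries and depth and are a description. The groups of Scg2, Ptprn and Ptprn2 do not overlap, so the direction of the genes most like them was set by the choice. Scg2 was closest to Dpy19l3 (r = 0.9984) and Cap1 (0.9978), both called higher (log2 fold changes 0.80 and 0.54, edgeR adjusted p = 0.0269 and 0.0387). Ptprn was closest to Abr (0.9913; 0.38, adjusted p = 0.108) and Pip4k2a (0.9910), which was called higher (0.74, adjusted p = 0.0139). Ptprn2 was closest to Phf21a (0.9995; -0.38, adjusted p = 0.0987) and Frzb (0.9990), which was called lower (-0.93, adjusted p = 0.0328). Of these called genes, Cap1, Dpy19l3 and Frzb stayed called in 1 of the 6 leave-one-out fits, that without knockout replicate 2, and Pip4k2a in 4, all but those without control replicate 3 and knockout replicate 3.

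The genes most like the remaining members were not called. Chga lay closest to Zfp979 (r = 0.9781) and Arsb (0.9779), which share its high value in control replicate 2. Chgb lay closest to Ppm1k (0.9691) and Eef1g (0.9648), and Scg3 to Slc35d1 (0.9864) and Dcun1d4 (0.9849). Vgf lay closest to Ryk (0.9821) and Gab1 (0.9791), whose highest values were also in control replicate 1.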

How the data were processed

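Poly(A) RNA of 100 to 200 hand-picked islets per mouse was sequenced from directional libraries, per the labels' protocols. Trimmomatic, Salmon, DESeq2, GRCm38 and mm10 are listed per the submitters' processing notes, and their versions were not given in the sources used here. Per the file headers, the authors deposited Salmon tables of estimated counts and TPM per transcript, and a comparison table with log2 fold changes and p-values. A further table with 6 columns of gene values was not used. Estimated counts were summed per gene with GENCODE vM21 (139852 of 140948 transcripts matched) and rounded. edgeR 4.0.16 in R 4.3.3 was run on genes kept by filterByExpr (minimum count 10), with TMM scaling, the quasi-likelihood test on group alone and Benjamini-Hochberg adjustment at 0.05, two-sided. DESeq2 1.42.0 and limma-voom (limma 3.58.1) were alternatives. The common biological coefficient of variation was 0.26. SEs were taken from each change and its F statistic. Ratios within libraries and transcript shares were compared by exact permutation (scipy 1.17.1). The edgeR step was tested on simulated data.

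The members and lists were chosen with earlier results of these data known. Named genes were all 7 members, Dpy30, up to 4 genes of smallest p per list (and all called genes where 6 or fewer), and the 2 most alike genes per member. A gene of the regulator list is not reported here and was left out of that list's counts. The neighbouring genes were chosen after their values were seen. Replicate numbers are shared between groups. Deviations from group means correlated at 0.427, 0.135 and 0.196 for equal numbers and at -0.318 to 0.14 for unequal ones. The highest unequal value exceeded the lowest equal one. Deviations within a group add to 0, so these values are not independent and cannot decide whether the numbers mark pairs. The meaning of a number is absent from the labels. The reported fits and tests were unpaired, with group as the only term, and a replicate block was tried as an alternative. Promoter sequences are RefSeq's on GRCm38.p6.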

Additional observations from a re-analysis of the deposited data

How the results depend on the processing

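Of the 7 genes, edgeR called 1 in the reported fit and 2 (Ptprn and Scg2) with DESeq2, limma-voom, no filter on low counts, an offset for average transcript length, or library sizes without Ins1, Ins2 and Gm42418; it called 0 with the acinar level as a covariate and 0 to 2 with 1 library left out. Over all genes 2535 were called by DESeq2, 556 with the acinar covariate and 737 to 1330 with 1 library left out, against 1634; over all transcripts DESeq2 called 2256 and edgeR 0 with the replicate block and in each leave-one-out fit, against 175. With the replicate block 2430 genes were called and 1 of the 7, Ptprn at an adjusted p of 0.046; the pairing by number lost Atp6ap1 (0.0527), gained Ptpro (0.0419) and changed no other call among the genes named. Scaling by library totals alone moved the median of all genes by 0.14 on the log2 scale, and relative to that shift Ptprn (0.86) and Scg2 (0.85) stayed higher and Ptprn2 (-0.17) lower. The log2 ratio of granins to Ptprn and Ptprn2 was -0.016 on TPM and -0.097 to 0.169 with 1 library left out. Signs turned for log2 fold changes that were not called: with the acinar covariate for Chgb (-0.409), Scg3 (-0.043), Dcun1d4 (-0.079) and Eef1g (-0.068); with library totals for Stat5b (0.011), Arsb (0.085), Ppm1k (0.115) and Zfp979 (0.076); with the length offset for Phf21a (0.068) and Ppm1k (0.037). Leave-one-out fits gave -0.383 to 0.080 for Chga, -0.168 to 0.303 for Chgb, -0.187 to 0.104 for Ppm1k, -0.175 to 0.091 for Zfp979 and -0.015 to 0.070 for Eef1g. For transcripts they gave -0.382 to 0.086 (Chga-201), -0.372 to 0.271 (Chga-202), -0.467 to 0.069 (Chga-203), -0.209 to 0.312 (Chgb-201), -0.073 to 0.229 (Ptprn2-202), -0.641 to 0.903 (Ptprn2-203), -0.113 to 0.414 (Scg3-206) and -1.191 to 0.132 (Vgf-201). Of the called genes named beside the 7, all but Slc30a8, Rab37, Isl1, St18, Resp18, Capn1 and Frzb lost their call with the acinar covariate; Capn1, Frzb, Ptprf, Ptprt, Utrn, Pax6, Nkx2-2 and Rfx6 lost it with library totals, Cap1, Itpk1 and Atp6ap1 with no filter, and Cap1, Ptprf and Atp6ap1 with the length offset. The causes were not tested. With 3 mice per group and a biological coefficient of variation of 0.26, replicate spread limits these tests more than read depth for the 6 genes above 400 CPM; Vgf is the least certain.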
